A study of Mus musculus with 32 samples.

Results

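Transcripts of the glutathione peroxidases Gpx1, Gpx2, Gpx3, Gpx4, Gpx7 and Gpx8 were followed through RNA sequencing of a mouse model of benign prostatic hyperplasia. These 6 genes, taken by symbol, are 6 of the 13780 genes in the deposited expression table, and each has 1 row there. Gpx5 and Gpx6 are not analysed here. The set was chosen by gene family, with earlier results of these data known. Gpx3 was selected on its TPM in the prostate lobes, which differed widely between treated and untreated mice. Its levels in the lobes are therefore given as a description with no test.

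The study used male C57/BL6 mice implanted under the skin with 25 mg of testosterone and 2.5 mg of oestrogen and kept for 2 weeks, called T+E2 here, and mice given no hormone. From both kinds of mice it took 2 lobes of the prostate, the anterior (AP) and the dorsal lateral (DLP), and also the prostatic urethra. Urogenital sinus (UGS), the embryonic tissue that forms prostatic buds, came from male embryos at embryonic day E16.5 and was cultured with testosterone for 6 days or without hormone, the latter arm having no stated culture time. Each of the 8 groups held 4 libraries, named below by the number or letter in their titles. The labels state neither the age of the implanted mice nor whether libraries of a group are separate animals or cultures, so p-values measure only the spread between these libraries, which may be technical.

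Glutathione peroxidases reduce hydrogen peroxide and lipid hydroperoxides with electrons from glutathione, which glutathione reductase then restores. Gpx1 is the abundant enzyme of the cytosol and mitochondria, Gpx2 is best known from gut epithelium, and Gpx4 acts on phospholipid hydroperoxides in membranes. Gpx3 is secreted and forms the plasma enzyme, most of which is made in the kidney, while Gpx7 and Gpx8 lie in the endoplasmic reticulum, where disulphide formation yields peroxide. The prostate lobes are secretory glands whose luminal cells depend on androgen.

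The members differ at the codon of the catalytic residue. The 30 coding bases around it are given here, 5′ to 3′ on the sense strand, from GENCODE M21 transcripts (build GRCm38), with the catalytic codon in capitals.
Gpx1: aatgtcgcgtctctcTGAggcaccacgatc
Gpx2: aatgtggcgtcactcTGAggaacaactacc
Gpx3: aacgtagccagctacTGAggtctgacagac
Gpx4: aacgtggcctcgcaaTGAggcaaaactgac
Gpx7: aacgtagctagcgaaTGTggcttcacagac
Gpx8: aacgtggctagtgacTGCcgcttcacagac

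In Gpx1, Gpx2, Gpx3 and Gpx4 the codon is TGA, annotated as selenocysteine, the selenium-containing amino acid that is inserted at a stop codon. In Gpx7 and Gpx8 the aligned codons TGT and TGC encode cysteine. Over the 30 bases Gpx1 and Gpx2 matched at 24 positions, and Gpx7 and Gpx8 at 25. Gpx3 matched Gpx7 at 23 positions and Gpx1 at 15, so in this window it was closer to the cysteine members than to the other selenocysteine members. The genes lie on different chromosomes of GRCm38: Gpx1 at 9:108338903-108340343, Gpx2 at 12:76792333-76795554 and Gpx3 at 11:54902453-54910377. Gpx4 is at 10:80047166-80056439, Gpx7 at 4:108400390-108406961 and Gpx8 at 13:113042753-113046410. No exon of another annotated gene overlapped an exon of a member.

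Bases upstream of the RefSeq start of Gpx3 are shown because Gpx3 had the widest range of the 6. The annotations differ on that start, which RefSeq puts at 54902854 and GENCODE at 54902772, 54902926 or, for the transcript that begins the gene as given above, 54902453. The 168 bases (build GRCm38.p6, chr11:54902604-54902771, plus strand) end before the exon at 54902772, and they lie within the annotated gene, in the intron from 54902576 to 54902858 of the transcript that starts farthest upstream. No annotated Gpx3 exon covers them. Capitals mark the single match to the androgen response half-site TGTTCT, 133 bases before the RefSeq start.
Gpx3 promoter: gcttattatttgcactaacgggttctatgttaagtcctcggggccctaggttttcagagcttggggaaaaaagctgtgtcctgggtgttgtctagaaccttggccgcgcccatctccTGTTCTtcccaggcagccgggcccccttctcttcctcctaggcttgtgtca

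The half-site occurred in 16.1% of 32851 RefSeq windows of 250 bases, searched on both strands. The full androgen response element, an inverted repeat that contains that half-site, was in 0.00913% of windows and in no member's window. The palindromic oestrogen response element (0.0639% of windows), the antioxidant response core TGACNNNGC (10.2%) and TATAAA (12.4%) were also absent from the members' windows. The STAT5 letters TTCNNNGAA (7.02%) were found in the window of Gpx8, 122 bases before its start. These matches describe letters in a window and say nothing of binding. The windows precede RefSeq starts, and not all lie upstream of the GENCODE spans given above. That of Gpx7 (4:108406714-108406963) lies almost wholly within its span, and those of Gpx1 and Gpx8 reach into theirs. Gpx4 has several windows, and all but 10:80046916-80047165 lie within its span.

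Levels are in TPM, a transcript abundance that is scaled to a fixed library sum and corrects for transcript length, so levels of different genes can be compared within a library. It does not preserve the number of reads, so no depth or counting error can be attached to a value. Library sums lay between 994133 and 997961 TPM, and 12289 to 13337 genes reached 1 TPM per library. Seminal vesicle transcripts made up 152486 to 266505 TPM of every DLP library. Among AP libraries they reached 99146 and 72084 TPM in T+E2 17 and 18 and 54217 TPM in control 9, against 35.6 to 1988 TPM in the other 5. Skeletal muscle transcripts stood at 1962 and 2135 TPM in DLP T+E2 18 and 24, against 269 to 734 TPM in the other DLP libraries. The 7 luminal prostate markers, of which probasin (Pbsn) supplies most, were detected in every prostate group and summed to 13857 to 16230 TPM in T+E2 DLP and 35424 to 55294 TPM in control DLP. The same sum was 14287 to 17770 TPM in T+E2 AP and 54190 to 62333 TPM in control AP. Urothelial markers, 5 of 6 in the table, summed to 681 to 843 TPM in T+E2 DLP and 293 to 305 TPM in control DLP, and to 838 to 1334 TPM in T+E2 AP and 234 to 269 TPM in control AP. Of these 4 lists, the markers at 0 in all 4 libraries of a prostate group were Myh4 and Pvalb, of skeletal muscle, in T+E2 AP. The part of these shifts in the members' values was not tested.

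In control DLP, Gpx3 stood at 1103, 1188, 1332 and 1355 TPM in libraries 7, 10, 9 and 8. With T+E2 it stood at 20259, 20523, 23576 and 25304 TPM in libraries 24, 1, 18 and 2. Every treated library lay far above every control, and the ratio of the means was 18.0. Groups did not overlap for 16.3% of all genes tested in DLP. Treated DLP averaged 22416 ± 2444 TPM (SD, n = 4), where Gpx3 was the gene with rank 5 by TPM in all 4 libraries, after ranks between 75 and 93 in the controls.

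In control AP, Gpx3 stood at 299.8, 410.8, 420.0 and 443.6 TPM in libraries 7, 9, 8 and 6. With T+E2 it stood at 31499, 33302, 34992 and 38904 TPM in libraries 17, 18, 2 and 3. The groups did not overlap, as was so for 34.4% of genes tested in AP. The ratio of the means was 88.1, and the 4 treated libraries varied by 9.11% (coefficient of variation). Gpx3 ranked between 1 and 3 by TPM there and took 3.48% ± 0.317 (SD, n = 4) of all TPM, against 0.0394% in the controls. On the log2(TPM + 1) scale the difference was 6.47 in AP and 4.17 in DLP. Without the 3 AP libraries rich in seminal vesicle transcripts it was 6.59, and without the 2 DLP libraries with most skeletal muscle it was 4.20. Adipose tissue is another known source of Gpx3, and adipocyte markers (6 of 7 in the table) summed to 22.5 to 81.0 TPM in T+E2 AP and 27.6 to 68.1 TPM in control AP. In DLP they summed to 237 to 324 TPM with T+E2 and 166 to 550 TPM in controls, so the groups overlapped in both lobes. Of 9 markers of epididymis and vas deferens, 2 were in the table. These 2 summed to 7.7 to 1093 TPM in T+E2 AP and 0.67 to 41.7 TPM in control AP. In DLP they summed to 2452 to 6171 TPM with T+E2 and 2054 to 3384 TPM in controls. These groups overlapped too, but the medians were higher with T+E2 in both lobes. None of 5 kidney markers was in the table. The part of these tissues in the lobe Gpx3 values was not tested. In bulk tissue, more cells of a type and more RNA per cell cannot be told apart.

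**Figure D1:**
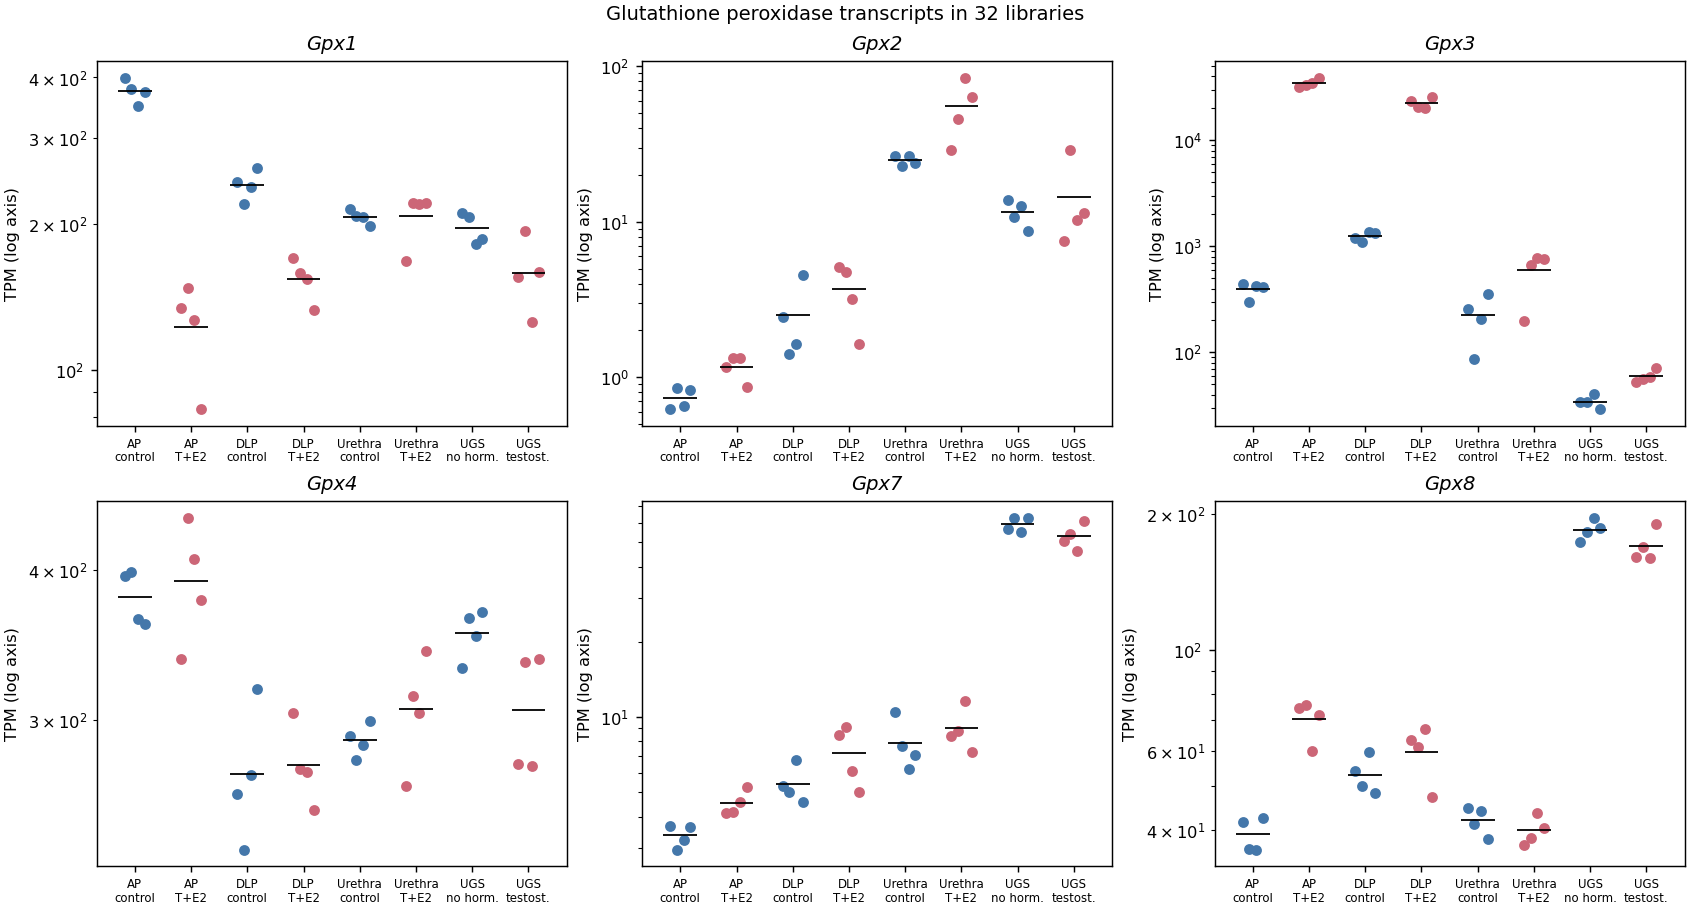
Level of each glutathione peroxidase transcript in TPM (log axis, a different range in each panel) in 32 libraries, by group. Points are libraries, blue for untreated or hormone-free and red for hormone-treated, and bars are group means of 4 libraries. Gpx3 separates completely by T+E2 in both lobes, from 299.8 to 1355 TPM in controls to 20259 to 38904 TPM with T+E2. Groups also separated for 34.4% of genes tested in AP and 16.3% in DLP.

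Gpx3 was selected on its lobe values, and it was tested in the urethra and the cultured UGS. That choice was made with earlier results of these data known, so these tests are not shown to be independent of it. Tests were made with limma on log2(TPM + 1) over all genes of at least 1 TPM in at least 4 libraries of the fit, and a gene was called when its Benjamini-Hochberg adjusted p over all those genes was under 0.05. In control urethra Gpx3 was 86.9, 207.6, 256.7 and 355.6 TPM in libraries 6, 7, 10 and 8. With T+E2 it was 198.2 TPM in library 1 and 668.9, 757.7 and 771.5 TPM in libraries 2, 4 and 3. Treated libraries 2, 3 and 4 lay above all controls, whereas library 1 lay within the control range. The log2 fold change was 1.38 ± 0.51 (SE, 4 against 4 libraries; 95% interval 0.25 to 2.52), and it was not called (limma, adjusted p = 0.256). Leaving out treated library 1 gave 1.85 (adjusted p = 0.0693), still not called, and adjusted p-values ran from 0.0693 to 0.495 over 17 alternatives.

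Transcripts of prostate secretion were also present in the urethral libraries. Treated library 1, the lowest for Gpx3 among the treated, had 2.09 TPM of Pbsn, whereas treated libraries 3, 4 and 2 had 159.3, 270.7 and 415.8 TPM. The controls had more Pbsn and less Gpx3 than those 3 libraries, with 548.1, 731.9, 1948 and 6304 TPM of Pbsn in libraries 10, 6, 7 and 8. The ratio of Gpx3 to Pbsn was 1.61 to 94.9 in treated and 0.0564 to 0.468 in control urethra. In the lobes it was 1.49 to 3.08 in treated and 0.00534 to 0.0345 in control libraries. Defb50, a beta-defensin abundant in both lobes, was ordered more like Gpx3, at 17.1, 725.5, 1041 and 1266 TPM in treated libraries 1, 4, 2 and 3 and 117.3, 355.2, 2568 and 12888 TPM in control libraries 6, 10, 7 and 8. The 2 epididymis and vas deferens markers present, of 9 listed, summed to 245 to 1243 TPM in treated and 120 to 247 TPM in control urethra. The part of these markers and of the lobe transcripts in the urethral Gpx3 values was not tested.

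**Figure D2:**
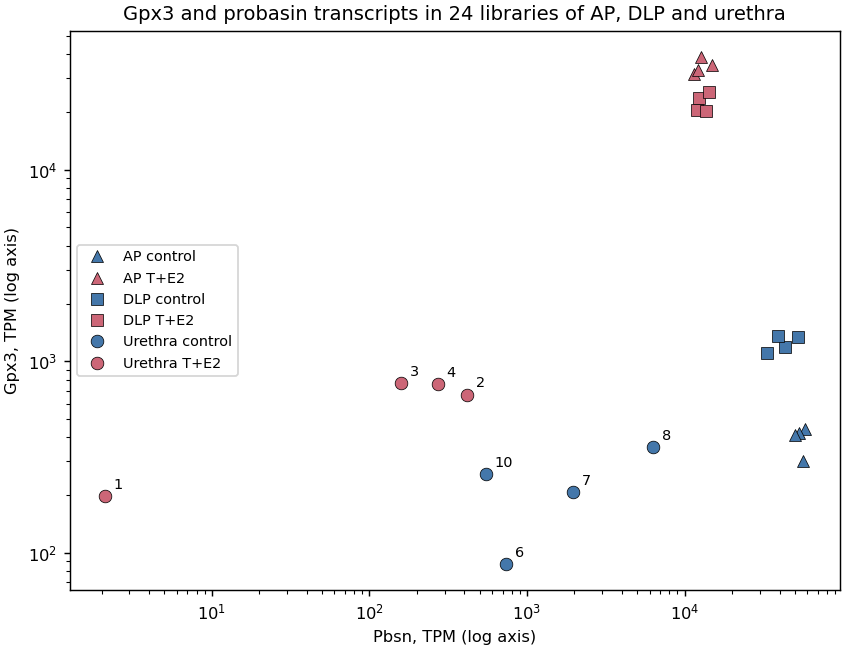
Gpx3 against probasin (Pbsn), both in TPM on log axes, in 24 libraries of AP (triangles), DLP (squares) and urethra (circles, with library numbers), blue for control and red for T+E2. In the lobes the T+E2 libraries lie above and to the left of their controls; among urethral libraries, T+E2 2, 3 and 4 lie above all controls at lower Pbsn, and T+E2 1 has the least Pbsn.

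In UGS cultured without hormone, Gpx3 was 29.0, 33.8, 33.8 and 40.3 TPM in libraries H, A, C and D. With testosterone it was 52.8, 56.7, 58.7 and 71.4 TPM in libraries B, C, G and H. Groups did not overlap, as was the case for 10.8% of genes tested in UGS. Gpx3 rose by a log2 fold change of 0.79 ± 0.12 (SE; 95% interval 0.51 to 1.07) and was called (limma, adjusted p = 0.0122). It was the only one of the 6 members called in UGS, where 1.73% of all genes tested were called. The median log2 fold change of all genes was 0.17 there, and other scalings that moved that median by -0.19 and -0.20 ended the call: Gpx3 was at 0.58 with median-of-ratios factors (adjusted p = 0.0881) and 0.66 with quantile normalization (adjusted p = 0.0682). Without library C of the hormone-free arm the change was 0.79 with an adjusted p of 0.0546. Adjusted p-values ran from 0.0110 to that value over the fits that each left out a single library. Over all 18 alternatives they ran from 5.42e-05 to 0.0881. Among these was a fit blocked by library letter, which rests on libraries C and H of each arm alone.

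The untreated level of Gpx3 fell in the order DLP, AP, urethra and hormone-free UGS, at 1245 ± 120, 394 ± 64.0, 227 ± 112 and 34.2 ± 4.67 TPM (SD, n = 4 each). DLP stood above the other tissues in all 4 libraries, whereas the AP and urethra controls overlapped. After T+E2 the order of the lobes was the other way round, with AP at 31499 TPM or more and DLP at 25304 TPM or less. These orders include the libraries by which Gpx3 was chosen and carry no test.

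Gpx1, the cytosolic enzyme, went the other way from Gpx3 in both lobes. In control DLP it was 219.3, 238.4, 243.8 and 260.6 TPM, and with T+E2 132.7, 154.3, 158.7 and 170.4 TPM. The groups did not overlap, as was so for 16.3% of genes tested in DLP, and Gpx1 fell by 0.64 on the log2 scale (SE 0.09; limma, adjusted p = 9.69e-04). It was the only one of the 5 members tested in DLP that was called, where 10.7% of all genes tested were called. In control AP it was 350.0, 373.9, 378.4 and 399.6 TPM, and with T+E2 83.0 TPM in library 3 and 127.1, 134.2 and 147.7 TPM in libraries 2, 17 and 18. The fall there was 1.63 on the log2 scale (SE 0.15; adjusted p = 1.65e-05), to an average of 123 ± 28.0 TPM from 375 ± 20.3 TPM. Left without the 3 AP libraries rich in seminal vesicle transcripts, it fell by 1.86 (adjusted p = 4.88e-05; 5.58e-07 to 1.26e-04 over 18 alternatives).

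The response of Gpx1 in AP differed from that in DLP and in the urethra. In control urethra Gpx1 was 198.0 to 214.5 TPM, and with T+E2 it was 167.4 TPM in library 1 and 219.8 to 221.1 TPM in the other 3. The log2 fold change was -0.0036 ± 0.0934 (SE; 95% interval -0.21 to 0.21; adjusted p = 0.989). Tested directly over 24 libraries, the T+E2 effect on Gpx1 was lower in AP than in DLP (difference -0.99 on the log2 scale, adjusted p = 6.65e-04) and lower in AP than in urethra (-1.63, adjusted p = 4.14e-07). The difference between DLP and urethra was -0.64 (adjusted p = 0.0468), a call that was lost in 18 of the 24 fits that each left out 1 library and with rescaling (-0.60, adjusted p = 0.0585). In UGS Gpx1 was 181.5 to 210.5 TPM without hormone and 125.8 to 193.4 TPM with testosterone, overlapping groups with a log2 fold change of -0.32 ± 0.12 (SE; adjusted p = 0.131).

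Gpx8, a transmembrane enzyme of the endoplasmic reticulum, rose in AP. Its controls were 36.3, 36.3, 41.8 and 42.7 TPM, and its treated libraries 59.8, 71.7, 74.4 and 75.8 TPM. The groups did not overlap, as was so for 34.4% of genes tested in AP, and the log2 fold change was 0.82 ± 0.09 (SE; limma, adjusted p = 7.03e-05). Of the 4 members tested in AP, Gpx1, Gpx7 and Gpx8 were called, in a comparison in which 34.5% of all genes tested were called. In DLP Gpx8 was 48.4 to 59.7 TPM in controls and 47.4 to 66.8 TPM with T+E2, and the change was 0.16 ± 0.11 (95% interval -0.08 to 0.40; adjusted p = 0.423). The T+E2 effect on Gpx8 was higher in AP than in DLP by 0.66 (adjusted p = 2.85e-03) and higher in AP than in urethra by 0.90 (adjusted p = 4.42e-05), while DLP and urethra differed by 0.23 (adjusted p = 0.401). For a difference of effect, Gpx1 and Gpx8 of those 4 members were called between AP and DLP, where 10.5% of all genes were. The same genes were called between AP and urethra, where 24.4% of all genes were. Gpx2 is not counted in these differences, since it did not enter the AP fit. Between DLP and urethra, where Gpx2 is counted as well, Gpx1 alone was called, with 3.64% of all genes.

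Gpx7, the soluble relative of Gpx8, was low in every library of the lobes and the urethra, between 2.95 and 11.6 TPM. In AP it was 2.95, 3.21, 3.63 and 3.65 TPM in controls and 4.13, 4.16, 4.56 and 5.23 TPM with T+E2. It rose by 0.34 ± 0.11 on the log2 scale (SE; limma, adjusted p = 0.0303), a call that was lost with median-of-ratios scaling (0.27, adjusted p = 0.0516) and with quantile normalization (0.19, adjusted p = 0.115). It was also lost without T+E2 library 2 or 3 or control library 7 or 8, and adjusted p-values ran from 0.0151 to 0.115 over 17 alternatives. In DLP the Gpx7 groups overlapped at 4.58 to 6.74 TPM in controls and 5.02 to 9.12 TPM with T+E2, and the change of 0.33 ± 0.17 was not called (adjusted p = 0.269).

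Gpx4, the phospholipid hydroperoxidase, had overlapping groups in both lobes. Control and treated DLP held 234.0 to 318.2 and 252.2 to 303.9 TPM, and control and treated AP 360.4 to 398.4 and 337.4 to 442.1 TPM. Its log2 fold changes were 0.03 in DLP (95% interval -0.19 to 0.25; adjusted p = 0.900) and 0.04 in AP (95% interval -0.16 to 0.23; adjusted p = 0.766), and their signs varied with the scaling. These intervals leave room for changes of that size in either direction. Gpx2, the gut-type enzyme, was near the lower limit in the lobes, at 0.62 to 1.33 TPM in AP, where it did not enter the fit, and 1.42 to 5.15 TPM in DLP (log2 fold change 0.42 ± 0.31; adjusted p = 0.454).

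**Figure D3:**
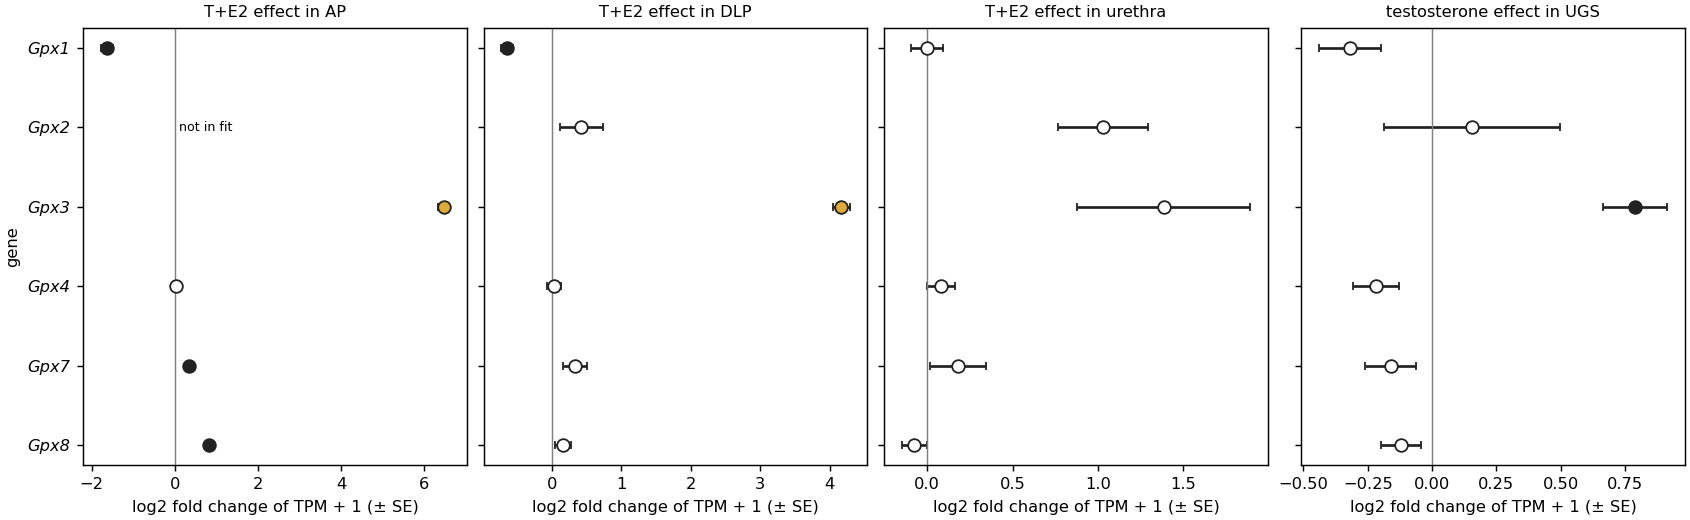
Log2 fold change of TPM + 1 for each member under T+E2 in AP, DLP and urethra and under testosterone in UGS (bars, ± SE; 4 against 4 libraries; each panel has its own scale). Black points were called, white points were not, and gold points mark Gpx3 in the lobes, described with no test. Gpx1 lies below 0 in both lobes (-1.63 and -0.64) and Gpx3 above 0 in all 4 panels.

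In the urethra Gpx2 was the member whose groups did not overlap, as 8.10% of all genes tested there did not. Its controls were 22.8, 23.7, 26.4 and 26.5 TPM, and its T+E2 libraries 29.0 TPM in library 1 and 46.0, 63.2 and 84.4 TPM in libraries 2, 4 and 3. The log2 fold change was 1.03 ± 0.26 (SE; 95% interval 0.44 to 1.62), and it was not called (limma, adjusted p = 0.142). Leaving out treated library 1 gave 1.30 with an adjusted p of 0.0145, which would be called, and over 17 alternatives adjusted p-values ran from 0.0145 to 0.316. None of the 6 members was called in urethra by limma, where 0.362% of all genes were, and 2 of the 6, Gpx2 and Gpx3, had an unadjusted p under 0.05, as did 14.7% of all genes tested there. Gpx4, Gpx7 and Gpx8 changed there by 0.08, 0.18 and -0.08, with adjusted p-values of 0.673, 0.640 and 0.669. The 7 skeletal muscle markers summed to 45522 to 61156 TPM in urethra with T+E2 and 37058 to 43467 TPM in its controls. Their part in these values was not tested. The basal epithelial markers, all 5 present, summed to 646.2 to 1287 TPM with T+E2 and 539.1 to 859.4 TPM in controls.

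Gpx2 was the member with the lowest levels in the untreated lobes. It was 24.8 ± 1.85 TPM in urethra, 11.5 ± 2.23 TPM in hormone-free UGS, 2.50 ± 1.42 TPM in DLP and 0.737 ± 0.119 TPM in AP (SD, n = 4 each). Its log2 difference between DLP and urethra was -2.96 (limma, adjusted p = 2.39e-08), or -3.40 and -2.01 with pseudocounts of 0.1 and 5. In every control AP library it was under the 1 TPM of the filter, so its AP values are a description with no test, and the log2 difference from urethra of -3.89 became -4.90 and -2.38 with those pseudocounts. Gpx1 was highest in AP, at 375 ± 20.3 TPM against 241 ± 17.0 TPM in DLP and 207 ± 6.75 TPM in urethra. It was higher in AP than in DLP by 0.64 (adjusted p = 3.68e-06) and higher in DLP than in urethra by 0.22 (adjusted p = 8.58e-03). Gpx1, Gpx4, Gpx7 and Gpx8 were called between AP and DLP, where 59.6% of all genes were. Between AP and urethra 3 of these 4 were called, Gpx8 being the exception (-0.10, adjusted p = 0.274), among 74.9% of all genes, and between DLP and urethra 4 of 5 with Gpx2 included, with Gpx4 the exception (-0.10, adjusted p = 0.299), among 63.3%. Among tissues most genes were called, members or not.

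Scaling moved these tissue contrasts. When TPM was rescaled without Gpx3 and without secretion, seminal vesicle and mitochondrial genes, the median of all genes moved by 0.51 between DLP and urethra and by -0.36 between AP and DLP. Under that rescaling Gpx4 was higher in DLP than in urethra by 0.45, and Gpx7, otherwise lower in DLP (-0.46, adjusted p = 0.0123), was level at 0.03 (adjusted p = 0.871). Gpx4, higher in AP than in DLP by 0.49 in TPM (adjusted p = 2.00e-04), differed by 0.09 after the rescaling (adjusted p = 0.173). Gpx1 stayed higher in AP than in DLP at 0.24 (adjusted p = 5.97e-04). With quantile normalization the AP and DLP difference was no longer called for Gpx7 (-0.22, adjusted p = 0.146), while Gpx8 became called between AP and urethra (-0.22, adjusted p = 0.0212). Gpx4 became called between DLP and urethra without DLP control 9 (-0.18, adjusted p = 0.0313).

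The endoplasmic reticulum members were most abundant in the embryonic tissue. Gpx7 averaged 59.1 ± 4.06 TPM in hormone-free UGS and Gpx8 185 ± 9.57 TPM, against at most 11.6 and 75.8 TPM in any library of the prostate and urethra. No UGS library overlapped those libraries for either gene, but the share of all genes that separate in this way was not counted. No test was made across these tissues, which differ in age and culture. Under testosterone both stayed within overlapping groups, Gpx7 at 46.3 to 60.8 TPM and Gpx8 at 160.0 to 189.8 TPM, and neither was called (-0.16, adjusted p = 0.259, and -0.12, adjusted p = 0.274). Gpx4 (-0.22, adjusted p = 0.139) and Gpx2 (0.15, adjusted p = 0.759) were not called in UGS either, although Gpx4 was called without testosterone library H (adjusted p = 0.0452). The signs of Gpx2, Gpx4, Gpx7 and Gpx8 in UGS are not fixed. With the trend of values with transcript length removed, Gpx4 stood at 0.09, Gpx7 at 0.08 and Gpx8 at 0.17, while Gpx1 kept its sign at -0.03. Gpx2 was at -0.02 with median-of-ratios factors and -0.12 with quantile normalization.

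The make-up of the family followed Gpx3. In control AP the summed TPM of the 6 genes was divided almost evenly between Gpx3 (32.9% ± 4.08), Gpx4 (31.9% ± 2.52) and Gpx1 (31.5% ± 1.70; SD, n = 4 each). With T+E2 Gpx3 held 98.3% ± 0.250 of it. In DLP its share went from 68.5% ± 1.15 to 97.8% ± 0.338, and in urethra from 27.3% ± 10.5 to 46.6% ± 12.3. UGS was divided differently, with Gpx4 at 42.2% ± 1.37, Gpx1 at 23.4% ± 1.86 and Gpx8 at 22.0% ± 1.07 in the hormone-free arm and Gpx3 at 4.08% ± 0.569. The summed TPM of the 5 genes other than Gpx3 was 798 ± 38.3 in control AP and 590 ± 60.2 with T+E2, and 572 ± 51.8 and 500 ± 46.2 in DLP. In AP the lowest control sum (754.2) lay above the highest treated sum (671.0), while in DLP the sums overlapped.

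**Figure D4:**
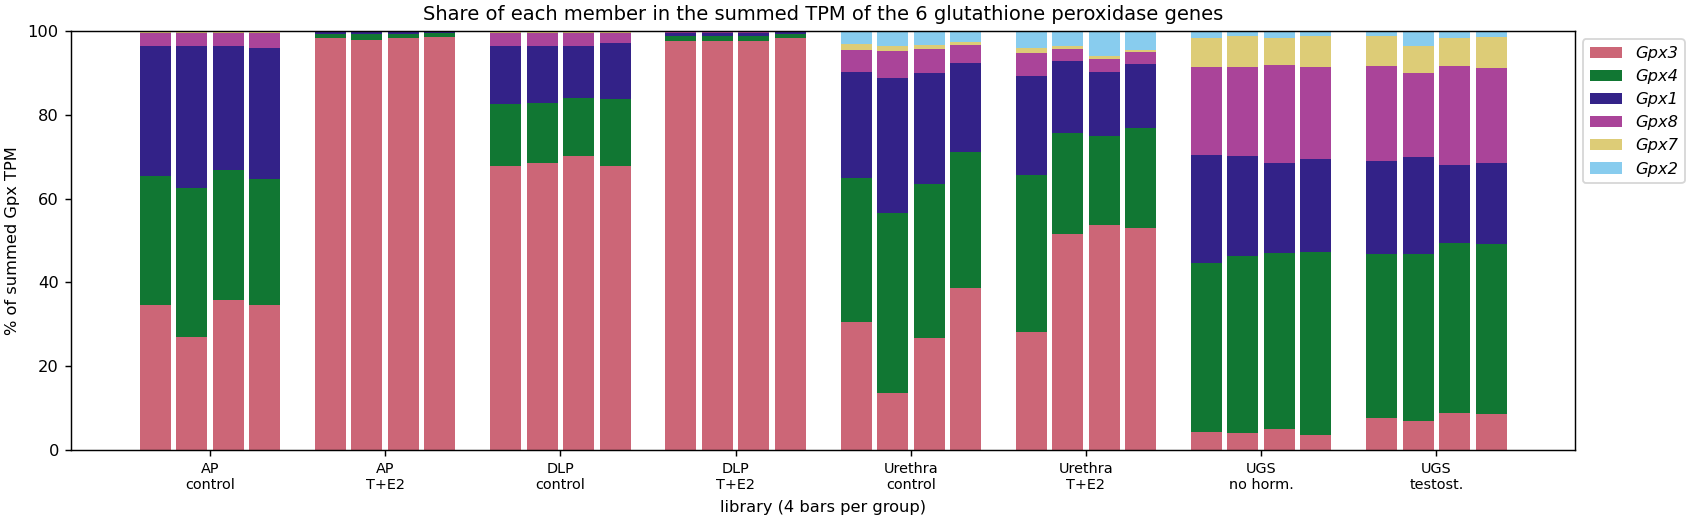
Share of each member in the summed TPM of the 6 genes, in percent, with 1 bar for each of 32 libraries and 4 bars per group. Gpx3 fills about all of each bar in T+E2 AP (mean 98.3%) and T+E2 DLP (97.8%), while UGS bars hold mainly Gpx4, Gpx1 and Gpx8.

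The enzymes around glutathione were described from 7 gene lists, of which the list of regulators and targets of Nrf2, the transcription factor of the oxidative stress response, shares 9 of its 22 genes with the others. In DLP 6.09% of all genes were called higher and 4.63% lower, and in AP 21.6% and 12.9%. Of 21 genes of glutathione synthesis and recycling, 4 rose and 2 fell in DLP and 9 rose and 5 fell in AP, with a median log2 fold change of 0.15 and 0.38 against 0.02 and 0.07 for all genes. Glutathione reductase (Gsr), which regenerates the substrate of the peroxidases, rose from 21.9 ± 1.16 to 52.5 ± 8.60 TPM in DLP (1.21 ± 0.11, SE; adjusted p = 4.47e-05) and from 23.4 ± 2.11 to 80.7 ± 13.4 TPM in AP (1.74 ± 0.11; adjusted p = 1.28e-06). Ggt1, which cleaves glutathione outside the cell, rose in AP from 40.0 ± 8.10 to 143 ± 12.5 TPM. Chac1, which degrades glutathione inside the cell, fell from 46.5 ± 16.49 to 4.91 ± 0.630 TPM in AP and from 11.3 ± 0.809 to 3.13 ± 0.865 TPM in DLP. Glutathione synthetase (Gss) fell in DLP from 36.2 ± 3.06 to 23.2 ± 0.780 TPM.

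Of 18 glutathione transferases, 4 rose and none fell in DLP, and 11 rose and 2 fell in AP, with medians of 0.10 and 0.59. Gsta2, an alpha class transferase, rose in AP from 3.80 ± 1.04 to 106 ± 24.1 TPM (4.47 ± 0.19, SE; limma, adjusted p = 5.36e-08) and in DLP from 8.20 ± 2.05 to 29.8 ± 3.25 TPM (1.77 ± 0.16; adjusted p = 4.97e-05). Gsta4, which conjugates lipid peroxidation products, rose in AP from 14.0 ± 4.70 to 73.1 ± 17.1 TPM and in DLP from 65.8 ± 17.3 to 137 ± 26.3 TPM. Alpha class transferases are closely related in sequence, so their values are uncertain where reads fit several. Gsto1 fell in AP from 79.0 ± 7.36 to 54.3 ± 5.26 TPM.

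Of 16 other enzymes of peroxide and superoxide, 3 rose and 1 fell in DLP (median 0.10) and 9 rose and 2 fell in AP (median 0.35). The gene that fell in DLP was Prdx6, a peroxiredoxin that uses glutathione, from 2234 ± 339 to 917 ± 62.2 TPM (-1.27 ± 0.11, SE; limma, adjusted p = 5.38e-05). In AP Prdx6 fell from 6002 ± 564 to 3828 ± 530 TPM and catalase (Cat) from 24.1 ± 2.10 to 13.6 ± 3.07 TPM, while Prdx1 rose from 479 ± 34.1 to 983 ± 47.8 TPM. Srxn1, Prdx5 and Txnrd1, the 3 that rose in DLP, had log2 fold changes of 0.40, 0.34 and 0.27. Without the 2 DLP libraries with most skeletal muscle these were 0.36, 0.26 and 0.25 from fewer libraries and were not called (adjusted p = 0.108, 0.199 and 0.253). Among oxidases that produce peroxide, 3 of 15 rose and 2 fell in DLP (median 0.03, or -0.02 with 2 higher and 0 lower without those libraries) and 2 of 14 rose and 4 fell in AP (median -0.14). Qsox1, a secreted sulphydryl oxidase that makes disulphides and hydrogen peroxide, rose from 172 ± 12.6 to 481 ± 41.5 TPM in DLP (1.48 ± 0.08, SE) and from 32.01 ± 12.4 to 327 ± 65.0 TPM in AP (3.36 ± 0.23).

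Genes that supply or use selenium were counted in the same way. Of 9 genes for selenoprotein synthesis, none was called in DLP by limma (2 had an unadjusted p under 0.05, as had 24.9% of all genes), and 3 rose and 1 fell in AP, with medians of -0.02 and 0.19. With quantile normalization 1 rose and 1 fell in AP, with a median of 0.07. Sephs2, which makes the selenium donor, rose in AP from 23.1 ± 0.603 to 35.0 ± 1.20 TPM. Of 13 other selenoproteins, 2 rose and 1 fell in DLP (median 0.09) and 5 rose and 2 fell in AP (median 0.12, or -0.03 with quantile normalization), among them Sepw1, which fell in AP from 272 ± 15.5 to 108 ± 20.8 TPM. Of the 22 Nrf2 genes, 7 rose and none fell in DLP (median 0.16) and 13 rose and 3 fell in AP (median 0.30), with malic enzyme (Me1), a source of NADPH, going from 21.6 ± 0.832 to 61.6 ± 4.00 TPM in AP. Without the 2 DLP libraries with most skeletal muscle, 2 of the Nrf2 genes, 2 of the transferases and 2 of the genes of glutathione synthesis and recycling rose in DLP, where 3.14% of all genes did. The medians of these lists were then 0.14, 0.16 and 0.20.

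In urethra no gene of the 7 lists was called by limma, where 0.200% of all genes were called higher and 0.162% lower. The genes with an unadjusted p under 0.05 numbered 5 of 21 for glutathione synthesis, 6 of 18 for transferases and 4 of 22 for Nrf2, and between 0 and 3 in the other 4 lists, among 14.7% of all genes. In UGS, where 1.43% were called higher and 0.301% lower, the transferase Gsta3 rose from 4.65 ± 1.12 to 21.4 ± 3.51 TPM (1.99 ± 0.18, SE; adjusted p = 6.20e-04) and the efflux pump Abcc4 from 7.36 ± 1.21 to 15.4 ± 2.97 TPM (0.96 ± 0.17; adjusted p = 0.0237). These were the only list genes called in UGS and were named after their values were seen. Under T+E2 in AP, Gsta3 was called higher (0.77; limma, adjusted p = 0.00156) and Abcc4 lower (-0.83; adjusted p = 8.25e-04).

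The 5 genes whose values across the 32 libraries were most like those of Gpx3 were Cyp3a57, Fuca1, P2rx6, Mia2 and Defb2, among 11271 genes compared. Genes with no group mean of 10 TPM or more were left out of that comparison. Transcripts with predicted, RIKEN, clone or number names were also left out, so such transcripts may correlate more. Their Pearson correlations with Gpx3 on log2(TPM + 1) were 0.968, 0.953, 0.949, 0.948 and 0.939. The libraries fall into 8 groups, so the correlation mostly follows group levels and carries no p. Cyp3a57, a cytochrome P450, averaged 6.01 ± 2.03 TPM in control AP and 244 ± 5.43 TPM with T+E2, and 23.6 ± 4.24 and 110 ± 11.5 TPM in DLP. Fuca1, a lysosomal fucosidase, was the most abundant of the 5, at 201 ± 4.60 and 997 ± 173 TPM in AP and 220 ± 25.9 and 794 ± 108 TPM in DLP. Defb2, a beta-defensin, averaged 4.12 ± 2.97 and 76.6 ± 28.5 TPM in AP and was at 0 TPM in all 8 UGS libraries. In urethra the treated and control means of each of the 5 differed by less than the SD of the controls, as with Fuca1 at 70.1 ± 15.2 and 66.6 ± 24.8 TPM. Likeness depended on the libraries: over the 24 libraries of prostate and urethra none of these 5 was among the top 5, and with Spearman correlation 2 were. The other members correlated with Gpx3 at 0.02 (Gpx4), -0.39 (Gpx1), -0.42 (Gpx8), -0.50 (Gpx2) and -0.67 (Gpx7).

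**Figure D5:**
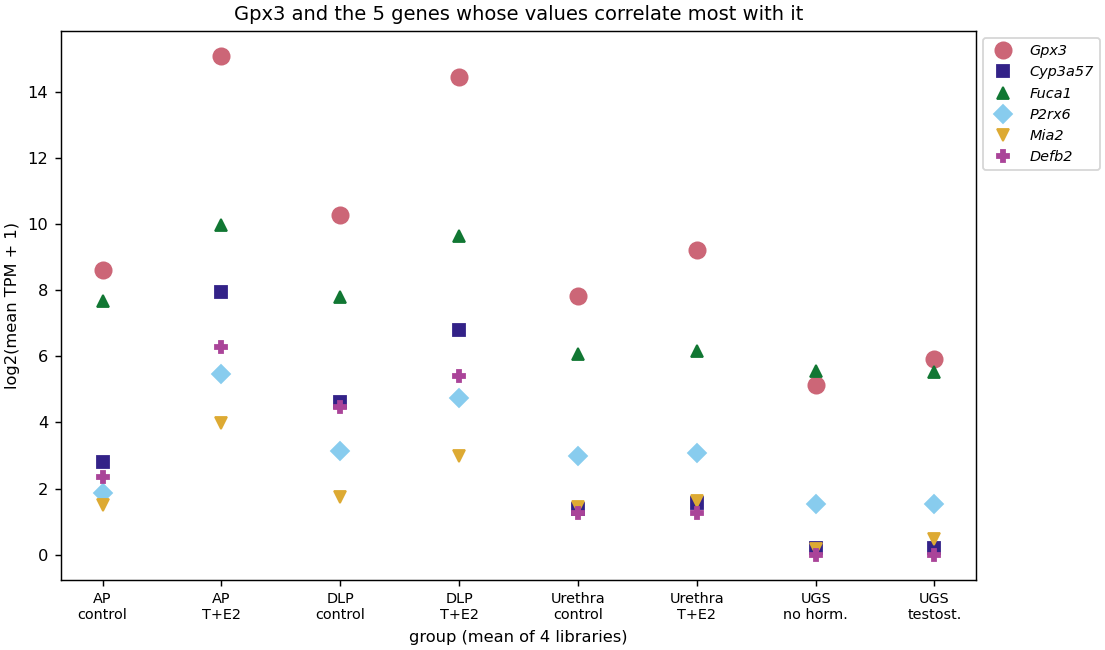
Group means of 4 libraries, as log2(mean TPM + 1), for Gpx3 and the 5 genes, of those compared, whose values correlate most with it over 32 libraries. All 6 genes are higher with T+E2 than in controls in AP and DLP; in the urethra Gpx3 moves from 227 to 599 TPM while Fuca1 stays at 66.6 and 70.1 TPM.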

How the data were processed

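The deposited table holds TPM per gene, scaled by the authors to a fixed sum within each library, for 32 libraries in 1 file, with no unused sample columns. The submitters' processing notes name FastQC, STAR, RSEM, edgeR and mm9, and give no role or version for any. The lowest value of the highest group mean of any gene was 5.00 TPM, so genes low in all groups are not in the table. No pair of columns was identical.

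The members and the gene lists were chosen with earlier results of these data known. Named genes were all 6 members and, in each list, up to 2 called rises and 2 called falls per lobe (mean of 10 TPM or more in the group with the higher level). Also named were the 5 genes with the highest Pearson correlation with Gpx3 among the 11271 genes compared. Values were analysed as log2(TPM + 1) with limma 3.58.1 in R 4.3.3 (mean-variance trend; at least 1 TPM in at least 4 libraries; Benjamini-Hochberg adjustment over all genes tested). Hormone effects were fitted within a tissue on 8 libraries, contrasts of untreated tissues on 12 libraries and differences of the T+E2 effect on 24. Fold changes on this scale understate changes of low genes. TPM are relative, so a gene as abundant as Gpx3 in treated lobes lowers the share of all others. Other settings tried were a pseudocount of 0.1 or 5, a filter at 5 TPM or none, 3 other scalings, limma with no trend, a replicate block and leaving out each library. Removal of a length trend (loess, span 0.5) and the fits without libraries rich in muscle or seminal vesicle transcripts were chosen after seeing the data.

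Sequences are from GENCODE M21 (GRCm38) and RefSeq (GRCm38.p6), another build than the authors', and all 6 members matched by symbol. Transcript lengths were matched for 13655 of 13780 genes. Figures were drawn with matplotlib 3.10.9.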

Additional observations from a re-analysis of the deposited data

Results flagged for a closer look

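Gpx1 in T+E2 urethra library 1, at 167.45 TPM, stood apart from the other 3 libraries of its group (219.8 to 221.1 TPM), with a gap to the nearest of them above Dixon's 95% critical value. It was 1 of 48 groups tested, and chance flags about 1 in 20. The same library was the lowest of its group for Gpx2, Gpx3, Gpx4 and Gpx8 and had the least Pbsn of all 24 libraries of prostate and urethra.

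The T+E2 effect differed between tissues for Gpx1 and Gpx8 (limma, log2 scale). For Gpx1 the effect in AP minus that in DLP was -0.99, AP minus urethra -1.63, and DLP minus urethra -0.64. For Gpx8 the effect in AP minus that in DLP was 0.66 and AP minus urethra 0.90. The DLP minus urethra difference of Gpx1 (adjusted p = 0.0468) was no longer called in 18 of the 24 fits that each left out 1 library, with adjusted p-values from 0.00298 to 0.0953 over those 24.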

How the results depend on the processing

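Of 1378 values of members under alternatives, those that left out 1 library kept direction and side of the threshold 806 times, lost a call 23 times and gained one 3 times. Under the other alternatives 521 kept both, 12 lost a call, 4 gained one, 7 values of Gpx3 moved beyond 1 SD and 2 reversed. Values past the threshold in neither fit changed sign 48 times and count as kept. With rescaling without Gpx3, secretion, seminal vesicle and mitochondrial genes, DLP against urethra reversed for Gpx4 (0.45) and Gpx7 (0.026). Quantile normalization gave 2242 called genes in DLP (984 higher, 1258 lower), 76 in urethra and 888 for the DLP minus urethra difference, and changed Gpx3 to 2.99 in DLP and 6.19 in AP. In urethra median-of-ratios scaling gave 75 calls and no filter 22. Without the 2 muscle-rich libraries DLP had 727 calls, from fewer samples. With the length trend removed UGS had 406. In AP, 46.3% of calls were higher with median-of-ratios scaling and 43.0% with quantile normalization, against 62.6%. In UGS these were 63.0% and 55.0%, against 82.6%.

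The labels do not say whether equal numbers mark 1 mouse or culture, and they were not treated as pairs: 15 pairs across tissues had correlations of deviations between -0.13 and 0.23, and letters C and H in UGS 0.0817 and 0.669. With a replicate block UGS had 2978 calls, Gpx2 among them (0.84, adjusted p = 0.00856). Only letters C and H occur in both UGS arms, so that fit takes its testosterone effect from libraries C and H alone. With the block the AP minus DLP difference had 706 calls, and the difference of the Gpx1 effect between DLP and urethra was not called (adjusted p = 0.0743). Leaving out 1 library gave 948 to 1335 calls in DLP, 3393 to 4381 in AP, 9 (without T+E2 2) to 173 (without control 6) in urethra and 94 (without hormone-free C) to 4536 (without testosterone H) in UGS. For untreated tissues it gave 7353 to 7897 (AP and DLP), 9374 to 10124 (AP and urethra) and 7696 to 8578 (DLP and urethra), and for differences of effect 1082 to 1655 (AP and DLP), 2695 to 3567 (AP and urethra) and 371 to 592 (DLP and urethra). The cause of these shifts was not tested. Without read counts the depth cannot be set against low values such as Gpx2 in the lobes.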
